A study of Mus musculus with 8 samples.

Results

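Gm14201 and Gm14204 were listed by the study as long noncoding RNA (lncRNA) genes on mouse chromosome 2. Their brainstem levels are described here in mice of the strains DBA/1 and C57BL/6. On the array, Gm14201 was read by probe ASMM10P021903, and Gm14204 was read by probes ASMM10P021910 and ASMM10P021911, each of which the study assigned to a different transcript of the gene. These 2 genes and 3 probes were chosen by their measured strain differences and are part of 1127 genes and 1183 probes that could be named here, out of 60804 probes with normalized values. The strain contrast therefore selected the members, and their strain values are given as a description with no test. The 4 DBA/1 mice and 4 C57BL/6 mice were untreated males aged 5 weeks, supplied as DBA/1JNCrlj and C57BL/6JNifdc. All were kept for 1 week under specific pathogen-free conditions without any sound test, and the whole brainstem was taken under isoflurane. DBA/1 mice are prone to seizures set off by sound and to respiratory arrest after them, and C57BL/6 mice served as the control strain. Brainstem RNA of each mouse went to 1 one-color Agilent array, so that each value below stands for 1 mouse. In such whole tissue, fewer cells of a type and less RNA per cell cannot be told apart.

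An lncRNA is a long transcript that is not translated into protein. Some are transcribed from intergenic DNA, and others start head-to-head with a coding gene, so that a single stretch of DNA holds the starts of both and transcription runs away from it on either strand. The coding gene next to Gm14204 is Slc32a1, which encodes the vesicular transporter that loads GABA and glycine, the main inhibitory transmitters of the brainstem, into synaptic vesicles.

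The probes are shown because each value was read through its sequence, and because the Gm14204 probes gave opposite strain differences. They are 60 bases long and are written 5′ to 3′ in lower case, with the hexamers AATAAA and ATTAAA, which occur upstream of many polyadenylation sites, in capitals.
Gm14201, probe ASMM10P021903: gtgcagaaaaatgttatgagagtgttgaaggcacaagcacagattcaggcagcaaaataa
Gm14204, probe ASMM10P021910: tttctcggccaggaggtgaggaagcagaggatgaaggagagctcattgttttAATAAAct
Gm14204, probe ASMM10P021911: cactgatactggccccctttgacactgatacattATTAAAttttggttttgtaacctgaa
Their GC content was 40.0%, 45.0% and 36.7% in this order, against a median of 40.0% over the 1183 listed probes. Both hexamers were searched on the printed strand alone. Probe ASMM10P021910 held AATAAA at base 53, as 16.2% of the listed probes do somewhere. Probe ASMM10P021911 held ATTAAA at base 35, as 5.83% of the listed probes do. The Gm14201 probe held neither hexamer, and 21.6% of the listed probes held one or the other. The longest run that the Gm14204 probes shared with each other on either strand was 8 bases. None of the 3 probes shared more than 12 bases in a row with any other listed probe, and the field for cross-hybridization was empty for all 3 in the study's list. Matches to transcripts outside that list, or to any protein, were not examined. Whether another transcript, such as a coding mRNA of like sequence, adds to the signal of a probe was therefore not tested.

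On GRCm38, Gm14201 (ENSMUST00000117627) was listed as an intergenic transcript at chr2:158402727-158403015 on the minus strand. Its RNA length of 289 bases equals its genomic span, so it was listed without introns. Gm14204 was listed on the same strand with 2 transcripts that share their start at 158610723 and differ in their 3′ ends. NR_040359, read by ASMM10P021910, spans chr2:158595472-158610723 and has 1554 bases of RNA from 15252 bases of DNA. NR_040358, read by ASMM10P021911, spans chr2:158598173-158610723 and has 5401 bases of RNA from 12551 bases of DNA, so that both transcripts are spliced. Their 3′ ends lie 2701 bases apart, and the probes lie 2688 bases apart. Each of the 3 probes lies at the 3′ end of its transcript, which it reaches to within 14 bases (Gm14201), 27 bases (ASMM10P021910) and 14 bases (ASMM10P021911) on the genome.

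Gm14201 and Gm14204 are 192.5 kb apart, measured from the start of Gm14201 to the 3′ end of NR_040359, and 195.2 kb apart when measured to the 3′ end of NR_040358. Their starts are 207.7 kb apart. The RefSeq gene table places Ralgapb, Gm14200, Adig and Arhgap40 between them. Snhg11 and Snhg17, both hosts of small nucleolar RNAs, lie on the far side of Gm14201. Gm14204 was listed as bidirectional, the class for an lncRNA that starts head-to-head with a coding transcript, and its start lies 35 bases from that of the Slc32a1 transcript NM_009508, which runs on the plus strand over chr2:158610758-158615747. The gene table also holds a longer Slc32a1 model that overlaps the Gm14204 span by 3464 bases. The nearer Gm14204 probe, ASMM10P021911, ends 9013 bases short of that overlap.

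**Figure D1:**
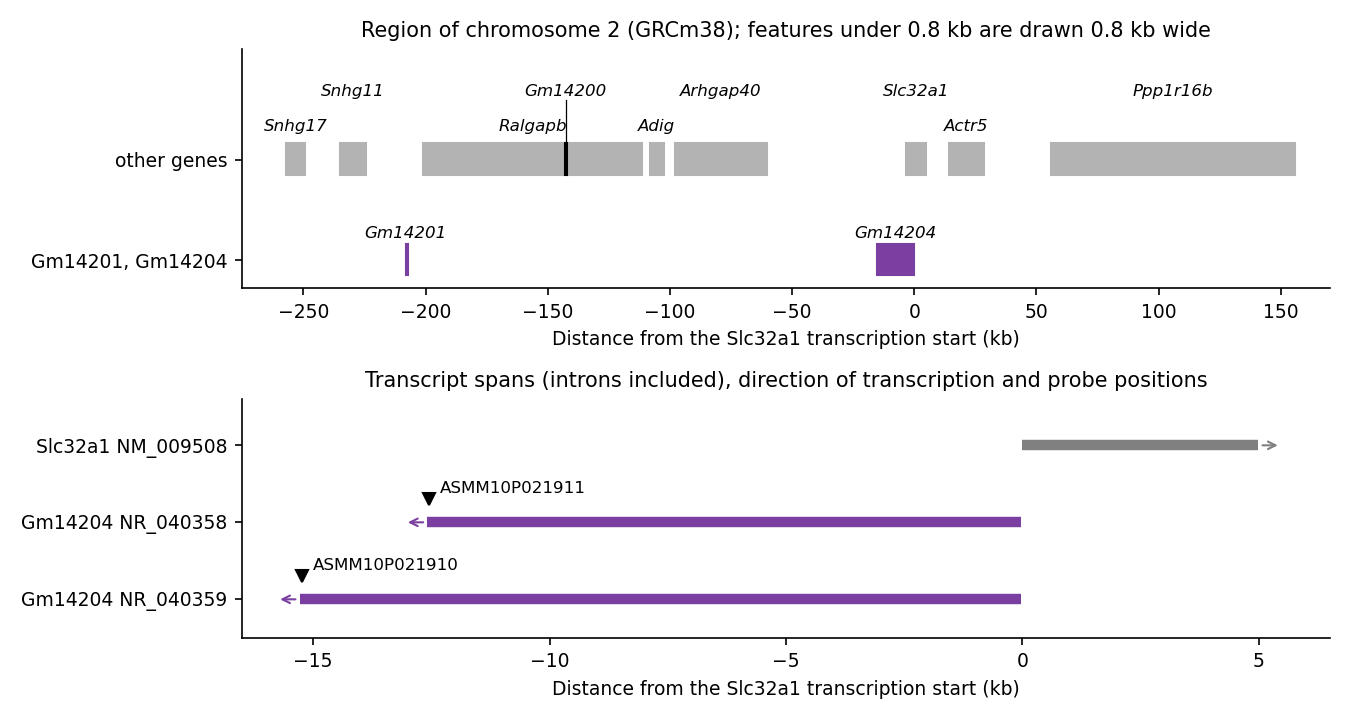
Map of the region on GRCm38 as distance in kb from the start of the Slc32a1 transcript NM_009508. The upper panel shows Gm14201 and Gm14204 in purple below the other genes, with Gm14200 in black inside Ralgapb. The lower panel shows the spans of both Gm14204 transcripts and of NM_009508, with arrows for the direction of transcription and black triangles for the probes. Gm14204 and Slc32a1 start 35 bases apart and run in opposite directions, and the Gm14204 probes sit at separate 3′ ends.

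The stretch that holds both starts is shown because it is shared by Gm14204 and its coding neighbour. It is the RefSeq promoter window of Gm14204, chr2:158610674-158610973 of GRCm38, read 5′ to 3′ on the minus strand. The second run of capitals marks the first 10 bases of Gm14204, and the first run marks the first 10 bases of NM_009508, which is transcribed from the other strand.
Gm14204 promoter window: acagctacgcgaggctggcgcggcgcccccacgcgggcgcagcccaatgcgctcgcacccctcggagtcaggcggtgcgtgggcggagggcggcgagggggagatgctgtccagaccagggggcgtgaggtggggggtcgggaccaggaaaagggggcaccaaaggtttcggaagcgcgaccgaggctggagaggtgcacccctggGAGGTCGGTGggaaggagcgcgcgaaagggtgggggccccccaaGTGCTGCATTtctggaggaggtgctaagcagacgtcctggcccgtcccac
The window has a GC content of 71.0% and 28 CG dinucleotides, and 14.2% of the 32851 RefSeq promoter windows of the same length hold at least as many. The letters TATAAA are on neither strand of it, while 13.6% of the windows hold them. No methylation or binding data were analysed here, and the window is given as a description of the locus.

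Across the 8 arrays, between 29301 and 36162 of the 60804 probes were well above background by the scanner software's flag. The 75th percentile of the processed signal, the spot intensity after background subtraction, ranged from 50.1 to 76.1 in DBA/1 mice and from 73.5 to 112 in C57BL/6 mice. The position labels of the 8 arrays fit 1 slide, which was taken from them and not from a slide identifier. By these labels each slide row held 1 strain, so row and strain cannot be told apart. Of 9 brainstem markers, only Tph2 and Slc6a4, both of serotonin neurons, had a probe that could be named, and none of 3 forebrain markers and 2 blood markers did. Tph2 was well above background on all 8 arrays and stood at 9.43 to 10.8 log2 units in C57BL/6 mice and 11.18 to 11.68 in DBA/1 mice. The listed Slc6a4 probe, for a noncoding transcript, stood at 2.38 to 3.65 in C57BL/6 mice, where it was well above background in 1 of 4 mice, and at 4.14 to 5.05 in DBA/1 mice, where it was so in 4 of 4. Both probes could be named only because the study had listed them for their strain difference on these arrays, so that a difference was fixed by selection. Its direction, higher in DBA/1 mice, was that of Gm14201 and probe ASMM10P021911, and the part of these markers in the values of the members was not tested.

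Gm14201 was bright in DBA/1 mice and dim in C57BL/6 mice. Before any scaling between arrays, its processed signal was 716, 608, 371 and 621 in DBA/1 mice 1 to 4 and 27.1, 12.9, 19.7 and 31.0 in C57BL/6 mice 1 to 4. After quantile normalization, which gives all arrays the same distribution, its log2 signal was 9.74, 9.49, 9.28 and 9.16 in the DBA/1 mice. It was 4.73, 3.84, 4.10 and 4.41 in the C57BL/6 mice. The lowest DBA/1 mouse was 4.43 log2 units above the highest C57BL/6 mouse, so the strains did not overlap. The spot was well above background on all 8 arrays, although in C57BL/6 mouse 2 its value lay close to 3.63, the top value there of any probe lacking that flag. The median spot signal was 25.4 to 56.2 times the local background in DBA/1 mice and 2.14 to 3.35 times in C57BL/6 mice. The strain means were 9.42 ± 0.26 in DBA/1 and 4.27 ± 0.38 in C57BL/6 mice (SD, n = 4 each). The difference in log2 signal, DBA/1 minus C57BL/6, was 5.15 ± 0.22 (limma SE), a 35.4-fold higher signal in DBA/1 mice.

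Gm14204 was lower in DBA/1 mice by one of its probes and higher by the other. Probe ASMM10P021910, for the transcript NR_040359, had a processed signal of 84.4, 108, 103 and 169 in C57BL/6 mice 1 to 4 and of 10.1, 5.76, 1.71 and 1.83 in DBA/1 mice 1 to 4. Its normalized log2 signal was 6.36, 6.86, 6.49 and 6.82 in the C57BL/6 mice. It was 3.07, 2.86, 2.32 and 2.32 in the DBA/1 mice, of which mice 3 and 4 were at the floor of 5 set on the signal, or 2.32 on the log2 scale. The strains did not overlap, with 3.29 log2 units between the highest DBA/1 and the lowest C57BL/6 mouse. The spot was well above background in 4 of 4 C57BL/6 mice and in 0 of 4 DBA/1 mice, where the median spot signal was 1.07 to 2.43 times the local background. The strain means were 6.63 ± 0.25 in C57BL/6 and 2.64 ± 0.38 in DBA/1 mice (SD, n = 4 each), and the difference in log2 signal was -3.99 ± 0.22 (limma SE). Because the DBA/1 spots were not well above background, that difference rests on the floor, and the fold is given as a bound. Each DBA/1 array was counted at the top value that any unflagged probe reached there, 3.66 to 4.46 log2 units. By this bound the signal in DBA/1 mice was at least 6.5-fold lower. With normexp, another background correction described below, the bound was -1.13 in place of -2.70 log2 units. Whether the DBA/1 sequence at this site matches the probe was not tested.

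Probe ASMM10P021911, which the study listed for the transcript NR_040358, was well above background on all 8 arrays. Its site also lies inside the genomic span of NR_040359, and whether an exon of that transcript covers it was not examined. Its processed signal was 560, 624, 406 and 622 in DBA/1 mice 1 to 4 and 173, 176, 204 and 290 in C57BL/6 mice 1 to 4. Its normalized log2 signal was 9.38, 9.53, 9.41 and 9.16 in the DBA/1 mice and 7.39, 7.57, 7.50 and 7.56 in the C57BL/6 mice. Again the strains did not overlap, and the lowest DBA/1 mouse was 1.59 log2 units above the highest C57BL/6 mouse. The strain means were 9.37 ± 0.15 in DBA/1 and 7.51 ± 0.08 in C57BL/6 mice (SD, n = 4 each), which is the smallest spread of the 3 probes in either strain. The difference in log2 signal was 1.86 ± 0.16 (limma SE), a 3.64-fold higher signal in DBA/1 mice.

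**Figure D2:**
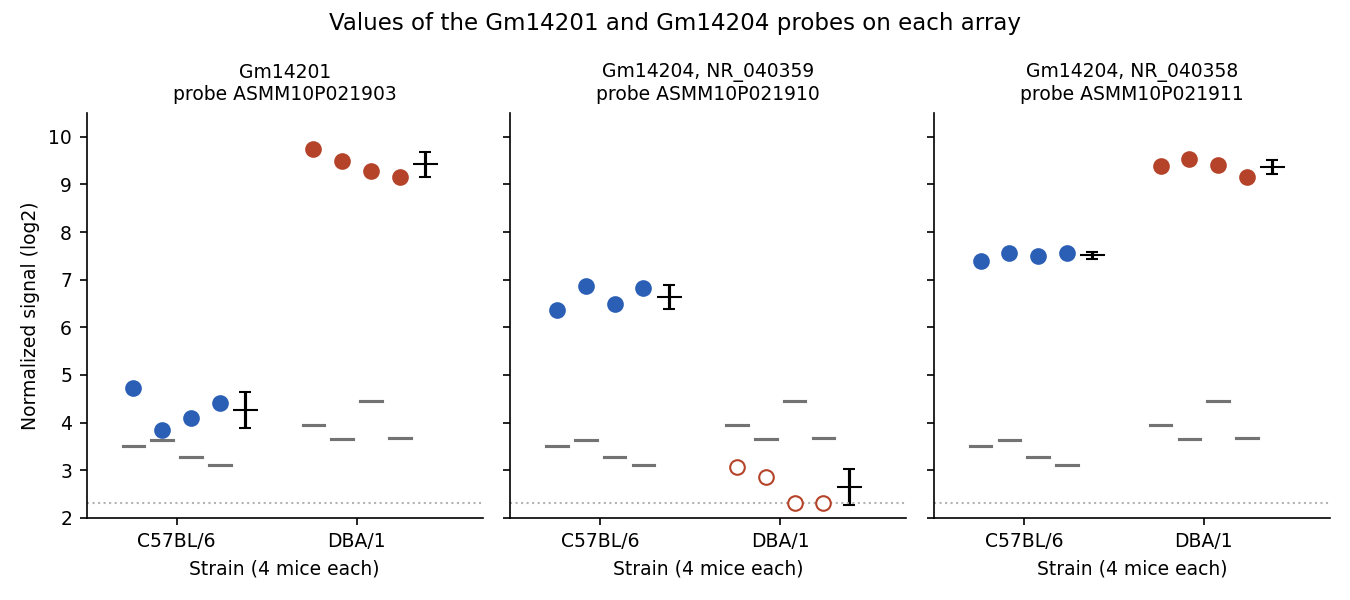
Normalized log2 signal of the 3 probes on each array, titled with the transcript the study listed for each, with 1 point per mouse, C57BL/6 in blue and DBA/1 in red. Filled points were well above background and open points were not. Black bars give the strain mean and SD, short grey lines the top value that a probe lacking this flag reached on that array, and the dotted line the floor at 2.32. The 4 DBA/1 mice lie above the 4 C57BL/6 mice for Gm14201 and ASMM10P021911 and below them for ASMM10P021910.

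Both Gm14204 probes thus separated the strains, in opposite directions, on the same arrays and in the same RNA. Every DBA/1 mouse was below every C57BL/6 mouse with ASMM10P021910 and above every one with ASMM10P021911. With ASMM10P021910 at its bound, the strain differences of these probes were at least 4.56 log2 units apart in the reported processing. The fitted distance, which does not use the bound, was 5.85, and it was 2.94 with the normexp correction. The distance at the bound is smaller than the fitted one and was not computed for normexp. The levels of different probes are not compared, because probes bind with different strength, and so the share of either transcript in the total Gm14204 RNA was not measured. No probe at the shared start of the transcripts could be named here, so the total Gm14204 level was not measured either.

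After quantile normalization, the strain difference was near 0 for most of the array. A median near 0 is largely set by that scaling and is given as the background only. Its median over the 33179 tested probes was -0.01 log2 units, and the central 95 in 100 lay between -1.2 and 0.71. Counted from the most positive difference, Gm14201 was in place 2 and probe ASMM10P021911 in place 89. No place is given for probe ASMM10P021910, whose difference rests on the floor. The study's criterion, at least a 2-fold change and an unadjusted p under 0.05, here from limma, was met by all 3 probes, against 1.06% of the tested probes called higher and 3.36% called lower in DBA/1 mice. With the Benjamini-Hochberg adjusted p under 0.05 in its place, 0.886% were called higher and 2.94% lower, and the 3 probes were again among them. Strains that did not overlap were found for 4.48% of the tested probes with the DBA/1 mice higher and for 7.64% with the DBA/1 mice lower. Since the members were selected on this contrast, nothing is read from their place in these counts.

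**Figure D3:**
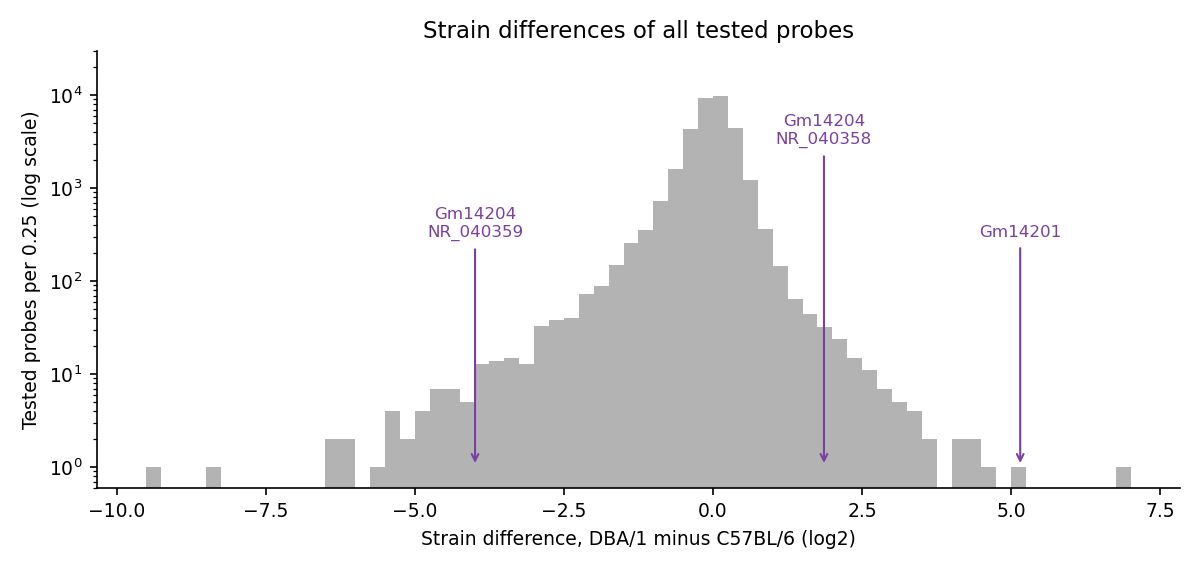
Number of tested probes, on a log axis, by strain difference (DBA/1 minus C57BL/6, log2) in steps of 0.25 over the 33179 tested probes. Arrows mark Gm14201 at 5.15, Gm14204 NR_040358 at 1.86 and Gm14204 NR_040359 at -3.99, of which the last rests on the floor in DBA/1 mice.

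Opposite differences within 1 gene were also seen at other loci of the study's lists, which hold the probes that it had picked on these arrays and were used here in part. There, 39 genes had at least 2 listed probes that met the criterion in these fits, and 6 of the 39 had probes in both directions. These were Gm14204, Xaf1, C030037D09Rik, Prmt2, Rwdd3 and Sox2ot. Among the 64 listed bidirectional lncRNA probes that met the criterion, from 55 genes, 10 were higher in DBA/1 mice and 54 lower. Over all tested probes that met it, 353 were higher and 1114 lower. That set is wider, as it holds lncRNA and mRNA probes whether listed or not. Gm14204 and C030037D09Rik were the bidirectional lncRNA genes with probes on both sides.

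Slc32a1 itself could not be followed, because no probe on this array could be paired with it here. The level of the vesicular GABA transporter beside that of Gm14204 was therefore not analysed. Of 27 genes of GABA transmission, which include its synthesis, transport and receptors, only Gabra2 had a probe that could be named, and this gene was in the study's list for its difference on these arrays. Gabra2, a GABA-A receptor subunit, stood at 5.33 to 6.20 log2 units in C57BL/6 mice and at 7.22 to 7.90 in DBA/1 mice, with a difference of 1.91 ± 0.22 (limma SE).

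Within 1 Mb of Gm14201 and Gm14204, the other listed probe was ASMM10P021905 for Gm14200, a transcribed pseudogene between them, which lies antisense in an intron of Ralgapb at chr2:158468169-158468360. Its log2 signal was 8.58, 8.09, 7.62 and 7.62 in DBA/1 mice 1 to 4 and 7.57, 6.00, 5.96 and 6.00 in C57BL/6 mice 1 to 4. The strains did not overlap, but C57BL/6 mouse 1 stood apart from the others of its strain and lay 0.04 below the lowest DBA/1 mouse. The difference in log2 signal was 1.60 ± 0.36 (limma SE), and it was 1.99 without that mouse. The Gm14200 probe was thus higher in DBA/1 mice like Gm14201 and ASMM10P021911, and unlike ASMM10P021910. Its field for cross-hybridization was empty in the study's list, but its matches to other transcripts were not examined. Whether this pseudogene probe also reads a coding mRNA of like sequence was not tested. Within 5 Mb there were 5 listed probes besides the members, 3 higher and 2 lower in DBA/1 mice. Over chromosome 2 there were 93, of which 28 were higher and 65 lower. The study's lists were used here in part, so these counts and splits, also within 1 Mb, can miss listed probes.

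The probes whose pattern over the 8 arrays was most like each member were found among 1158 listed probes with a value on every array, by the root mean square (RMS) difference of log2 values centred on each probe's mean. As the listed probes differ between the strains by selection, likeness here is mostly likeness in the size of the strain difference. For Gm14201 they were the lncRNA Gm11762, Tescl and the lncRNA AK038711, at RMS differences of 0.493, 0.512 and 0.593 log2 units. Gm11762 and Tescl were detected, that is well above background, in 0 of 4 C57BL/6 mice and AK038711 in 1 of 4, whereas Gm14201 was detected in all 4. For ASMM10P021910 they were the lncRNA AK136314, a noncoding transcript listed under Tmtc2, and Dbx2, which encodes a homeobox protein, at 0.213, 0.214 and 0.269. All 3 were detected in 4 of 4 C57BL/6 mice and 0 of 4 DBA/1 mice, as ASMM10P021910 was. Each of these probes had DBA/1 values at the floor, so their likeness in DBA/1 mice rests in part on the floor. For ASMM10P021911 they were Cuedc1, the lncRNA 1700086P04Rik and Myoz2, at 0.115, 0.117 and 0.129, all detected in all 8 mice. On the authors' normalized table, 3, 2 and 1 of these 3 stayed among the most similar for Gm14201, ASMM10P021910 and ASMM10P021911.

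**Figure D4:**
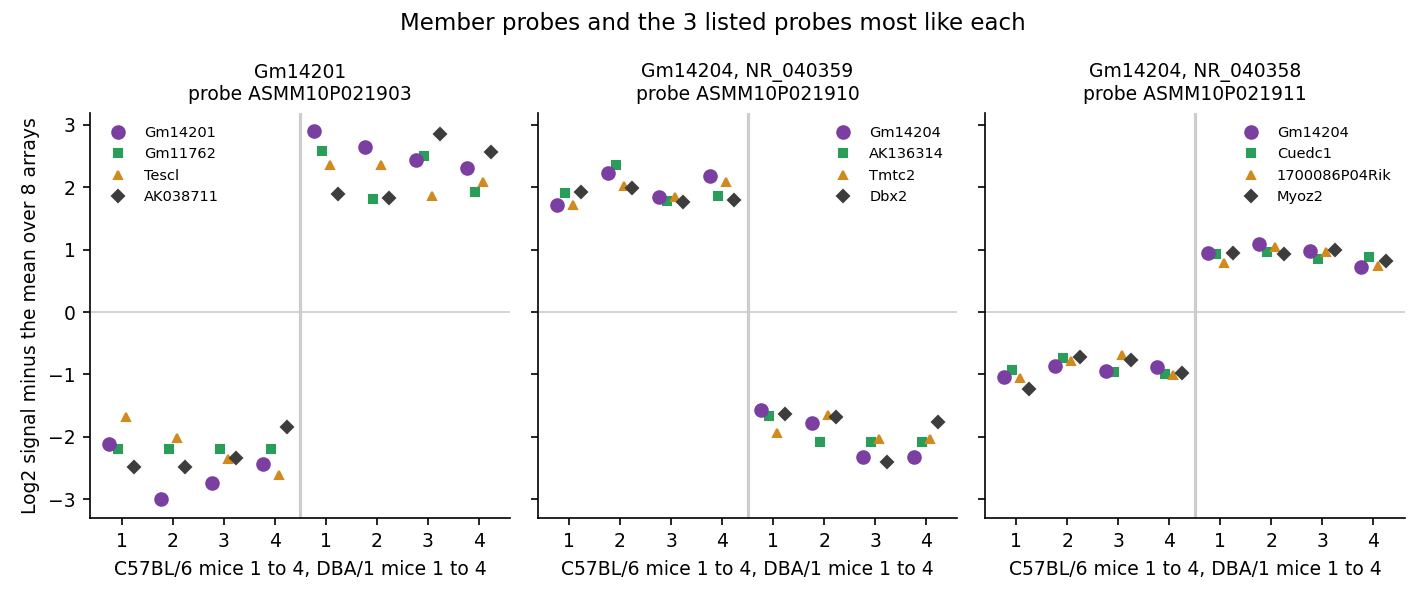
Log2 signal of each member probe (purple) and of the 3 listed probes most like it, after subtracting each probe's mean over the 8 arrays, for C57BL/6 mice 1 to 4 and DBA/1 mice 1 to 4. Gm14201 and its most similar probes lie at RMS differences of 0.493 to 0.593, and those of ASMM10P021911 lie closest together, at RMS differences of 0.115 to 0.129.

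The direction of all 3 differences was the same under every processing. Leaving out a mouse could not change it, because the strains did not overlap. In each of the 7 ways of obtaining values from the arrays, the strains did not overlap for any of the 3 probes, with the smallest gap between them at 2.59 log2 units for Gm14201, 1.09 for ASMM10P021910 and 1.13 for ASMM10P021911. These smallest gaps all came from normexp, a background correction that adds 50 to the signal and so draws dim values together. Under it the log2 difference was 3.10 for Gm14201, -1.42 for ASMM10P021910 and 1.52 for ASMM10P021911. The sizes of the first 2 thus depended on how dim spots were treated, and that of ASMM10P021911, bright in both strains, moved least.

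**Figure D5:**
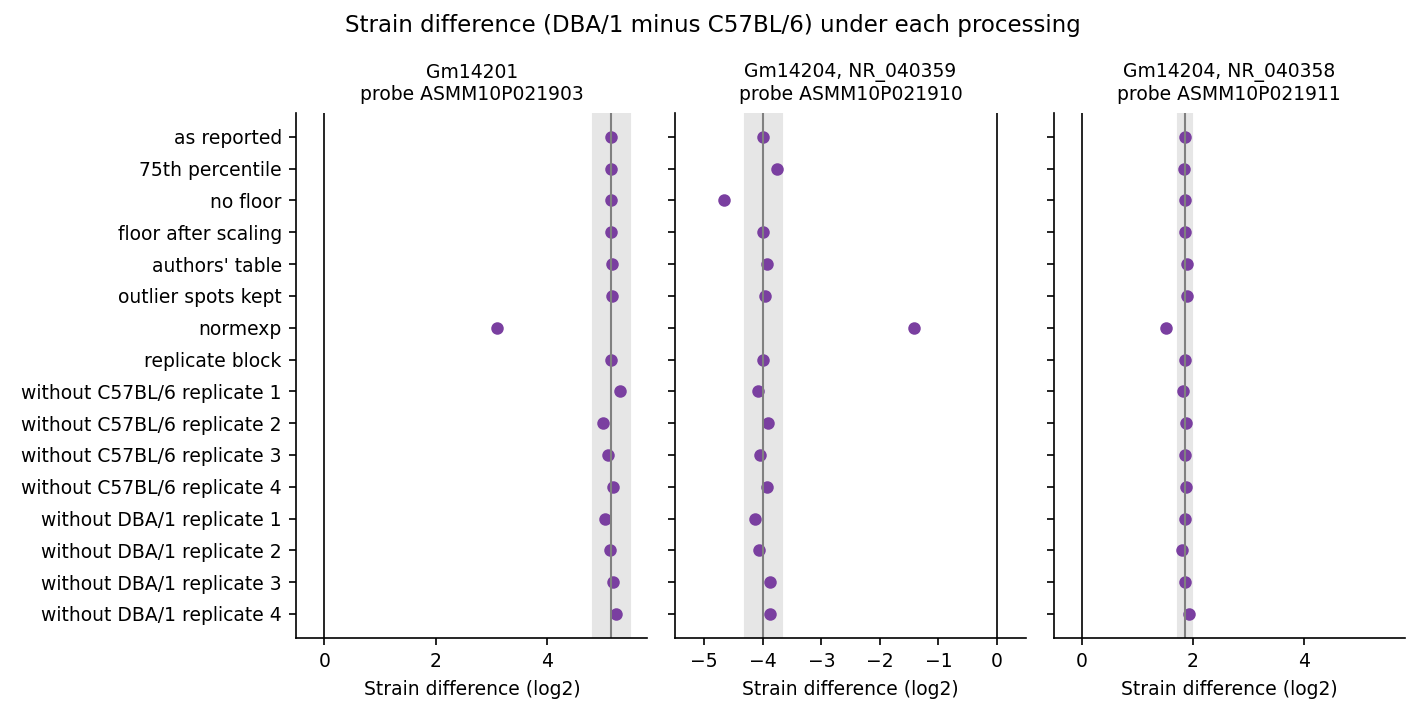
Strain difference (DBA/1 minus C57BL/6, log2) of each probe as reported, under each other processing and with each mouse left out. The grey line is the reported value and the grey band 1 SD between mice. Normexp draws all 3 differences toward 0, to 3.10, -1.42 and 1.52, and leaving out the floor moves ASMM10P021910 to -4.67.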

How the data were processed

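Total RNA from the brainstem of DBA/1 mice (n = 4) and C57BL/6 mice (n = 4) was extracted with TRIzol, depleted of rRNA, amplified with random primers, labelled with Cy3 and hybridized to an Arraystar mouse lncRNA and mRNA array, 1 mouse per array. Spot intensity, background and flags were deposited as Agilent Feature Extraction 11.0.1.1 wrote them, not normalized between arrays. The authors' table holds log2 values of 60804 probes, quantile-normalized in GeneSpring.

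Here, control spots and spots with an outlier flag were dropped, repeat spots of a probe were averaged, processed signals under 5 were set to 5, and arrays were quantile-normalized, then put on the log2 scale. Member values differed from the authors' table by at most 0.123. Probes well above background on at least 4 of 8 arrays, with the values in both strains that a fit needs, were fitted without covariates by limma 3.58.1 (lmFit, eBayes; R 4.3.3), with Benjamini-Hochberg adjustment over all 33179. The fit was tested on simulated data. Tables were made with Python 3.11.15 and pandas 2.3.3. Genes, positions and probe sequences came from the parts of Additional files 1 and 2 used here, and the promoter from RefSeq on GRCm38.p6. The SD is between mice, and the number of arrays limits precision.

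The members, gene lists and alternatives were chosen with earlier results of these data known. Named were the members, listed probes within 1 Mb, listed GABA and marker genes, and the 3 listed probes most like each member. Other genes with probes in both directions, and genes named only for their position, were chosen outside this rule. The alternatives were 75th-percentile scaling, no floor, the floor after scaling, the authors' table, normexp with an offset of 50, outlier spots kept, no filter or a stricter filter on dim probes, an unmoderated test, a block for the replicate number and each mouse left out.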

Additional observations from a re-analysis of the deposited data

Results flagged for a closer look

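Over 16 named probes and both strains, 32 groups of 4 mice were checked for a mouse far from the other 3, and 3 were found. Chance gives about 1 in 20 groups, a rate that does not hold where values are tied at the floor. None of the 3 groups found was of a Gm14201 or Gm14204 probe. Gm14200, the pseudogene between the members, stood at 7.57 log2 units in C57BL/6 mouse 1, against 5.96 to 6.00 in the other 3. Tph2 stood at 10.8 in C57BL/6 mouse 2, against 9.43 to 9.59 in the other 3, and its strain difference was 1.97 without that mouse and 1.64 with it. AK136314, the lncRNA most like ASMM10P021910, stood at 2.73 in DBA/1 mouse 1 while the other 3 were at the floor of 2.32, and it was not well above background in any of the 4.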

How the results depend on the processing

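Leaving out each mouse gave log2 differences of 5.00 to 5.30 for Gm14201, -4.13 to -3.88 for ASMM10P021910 and 1.81 to 1.93 for ASMM10P021911, and the fitted distance between the latter, which rests on the floor, ranged from 5.73 to 5.99. With normexp the differences were 3.10, -1.42 and 1.52, that distance was 2.94, the bound for ASMM10P021910 was -1.13 in place of -2.70 log2 units, and 391 probes met the criterion and 337 its adjusted form, against 1467 and 1270. Without a floor, ASMM10P021910 was at -4.67 and the distance at 6.53. With probes well above background on all arrays, a filter that ASMM10P021910 cannot pass, the counts were 700 and 643. The other alternatives moved the members by less than 1 SD between mice and the counts by less than 1.5 times. Leaving out each mouse gave 1424 to 1705 and 1113 to 1400 probes.

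By the position labels, same-numbered mice of the strains share a slide column. Their deviations correlated at 0.376, 0.0215, 0.135 and 0.352, and for 3 of the 4 numbers the own number matched best, a hint from the data of shared variation. Number 2 stayed under the 0.1 asked of every pair, so the reported fit has no block. With the replicate number as a block, 1466 and 1333 probes were called. The members' differences of 5.15, -3.99 and 1.86 could not change under it, as every number has a mouse of each strain.

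The planned fit of Slc32a1 was not run, since no probe was paired with it. Dim spots limit ASMM10P021910 in DBA/1 mice and Gm14201 in C57BL/6 mice.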
